A study of Mus musculus with 4 samples.

Results

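DNA methylation at the pluripotency genes Pou5f1, Nanog, Sox2, Klf4 and Dppa3 was described in mouse spermatozoa. The CG sites were those of chr17:35640000-35650000 (Pou5f1), chr6:122654000-122668000 (Nanog), chr3:34545000-34555000 (Sox2), chr4:55536000-55550000 (Klf4) and chr6:122573000-122583000 (Dppa3) of mm9 that had at least 5 reads in every library. This gave 759 of the 2638319 CG sites that reach 5 reads on chromosomes 1 to 19, X and Y. They divide into 120 sites at Pou5f1, 40 at Nanog, 267 at Sox2, 299 at Klf4 and 33 at Dppa3. Within these regions, sites were kept by coverage and position, not by their methylation level. The level of a CG site is the share of its reads that are methylated, and a stretch was given the unweighted mean of the levels of its sites.

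The study compared swim-up sperm with histone replacement-completed sperm (HRCS) by targeted bisulfite sequencing (TGBS), in which capture probes enrich chosen DNA and bisulfite converts the cytosines that carry no methyl group. The mice were wild-type males of 11 to 12 weeks, of strain C57BL/6 per the labels. The labels name caudal epididymis and vas deferens as the source for every sample, with no separate entry for swim-up sperm. Sperm of both fractions were passed through 50% Percoll and a lysis buffer against somatic cells. Swim-up sperm are motile cells taken from the top of the medium, and HRCS are dense sperm heads, freed of their tails by mild sonication and recovered through 82% Percoll. Each fraction had 2 libraries with the same genotype and no treatment. No source used here says whether the libraries of a fraction came from separate animals, so the p-values measure the spread between libraries, which may be technical.

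The swim-up libraries held 78562921 and 71379227 calls, a call being 1 read at 1 CG site, and the HRCS libraries held 89403347 and 78381101. As a check of the labelled cell type with promoters picked after the data were seen, those of 6 imprinted genes that carry their mark on the maternal copy (Peg3, Snrpn, Mest, Nnat, Plagl1 and Kcnq1ot1) had mean levels of 0.930% to 1.57% in the 4 libraries. Those of 5 germ cell genes (Ddx4, Dazl, Sycp1, Sycp3 and Mael) had 0.912% to 1.28%. Somatic DNA carries methylation at both lists. Of 8430 promoters with at least 20 CG dinucleotides, which are known to be mostly free of methylation, 99.9% had a level of at most 25%. The tables name no columns, and all levels here rest on reading the smaller count as methylated reads. Read the other way, these promoters would be nearly fully methylated and the order of the genes would be turned around.

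Pou5f1 (Oct4), Sox2, Nanog and Klf4 encode transcription factors that bind enhancers of pluripotent cells together, and their joint expression maintains the state of embryonic stem cells. Pou5f1 and Nanog are silenced with promoter methylation in differentiated cells, and their promoters hold few CG dinucleotides, whereas Sox2 and Klf4 start inside CpG islands, which stay free of methylation in most tissues. Dppa3 (Stella, PGC7) is made in germ cells and oocytes and protects the maternal genome of the zygote from demethylation.

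The letters of the promoters are shown because the number of CG dinucleotides sets these genes apart. Each run is the 250 bases before the start that RefSeq gives (build GRCm38.p6), read 5′ to 3′ on the strand of the gene, with the CG dinucleotides in capitals.
Pou5f1: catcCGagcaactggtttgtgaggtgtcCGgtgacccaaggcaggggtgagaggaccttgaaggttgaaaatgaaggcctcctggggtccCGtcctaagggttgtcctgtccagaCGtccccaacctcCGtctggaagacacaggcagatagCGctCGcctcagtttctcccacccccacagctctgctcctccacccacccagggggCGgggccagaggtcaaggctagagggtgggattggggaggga
Nanog: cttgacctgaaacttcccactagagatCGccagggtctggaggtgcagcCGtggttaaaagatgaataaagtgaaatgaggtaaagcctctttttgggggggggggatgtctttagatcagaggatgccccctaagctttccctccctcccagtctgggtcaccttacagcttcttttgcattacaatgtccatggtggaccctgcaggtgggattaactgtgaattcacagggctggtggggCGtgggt
Sox2: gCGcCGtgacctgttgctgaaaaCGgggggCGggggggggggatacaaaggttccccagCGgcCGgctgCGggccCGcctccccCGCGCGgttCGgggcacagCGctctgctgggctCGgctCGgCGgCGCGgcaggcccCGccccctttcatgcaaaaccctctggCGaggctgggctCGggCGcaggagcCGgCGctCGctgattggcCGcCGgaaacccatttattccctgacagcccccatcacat
Klf4: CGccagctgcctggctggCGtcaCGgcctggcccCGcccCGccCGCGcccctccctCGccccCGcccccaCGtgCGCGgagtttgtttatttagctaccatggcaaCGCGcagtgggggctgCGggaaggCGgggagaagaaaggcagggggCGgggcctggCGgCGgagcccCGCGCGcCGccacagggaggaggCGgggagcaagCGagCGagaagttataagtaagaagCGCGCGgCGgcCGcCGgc
These runs hold 8 CG dinucleotides at Pou5f1, 3 at Nanog, 27 at Sox2 and 32 at Klf4. In GRCm38.p6 they lie at chr17:35505782-35506031 (plus strand), chr6:122707239-122707488 (plus), chr3:34649745-34649994 (plus) and chr4:55532476-55532725 (minus). The promoters of 300 bases, which add the 50 bases from the start on, were placed by their spacing of CG dinucleotides. It was found at 1 place each among the deposited mm9 positions, which put the starts at chr17:35642977, chr6:122657507, chr3:34548917 and chr4:55545347 of mm9. The table gives a further start of Pou5f1 at chr17:35645752, inside the gene, and a further start of Nanog at chr6:122657583. No entry was found for Dppa3, which is described by position. The start zone reaches from 500 bp before to 500 bp after the start, and the zones on either side are called upstream and downstream.

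The 5 genes had very different levels in sperm. Nanog was methylated at every site measured, Sox2 and Klf4 were nearly free of methylation for several kilobases around the start, and Pou5f1 was methylated except for a short stretch at its start. Dppa3 was nearly free of methylation in most of its measured sites. Of the 759 sites, those with a mean level of at most 25% were 29 of 120 at Pou5f1, 0 of 40 at Nanog, 253 of 267 at Sox2, 237 of 299 at Klf4 and 31 of 33 at Dppa3. Those above 75% were 72, 40, 12, 30 and 1 in the same order.

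**Figure D1:**
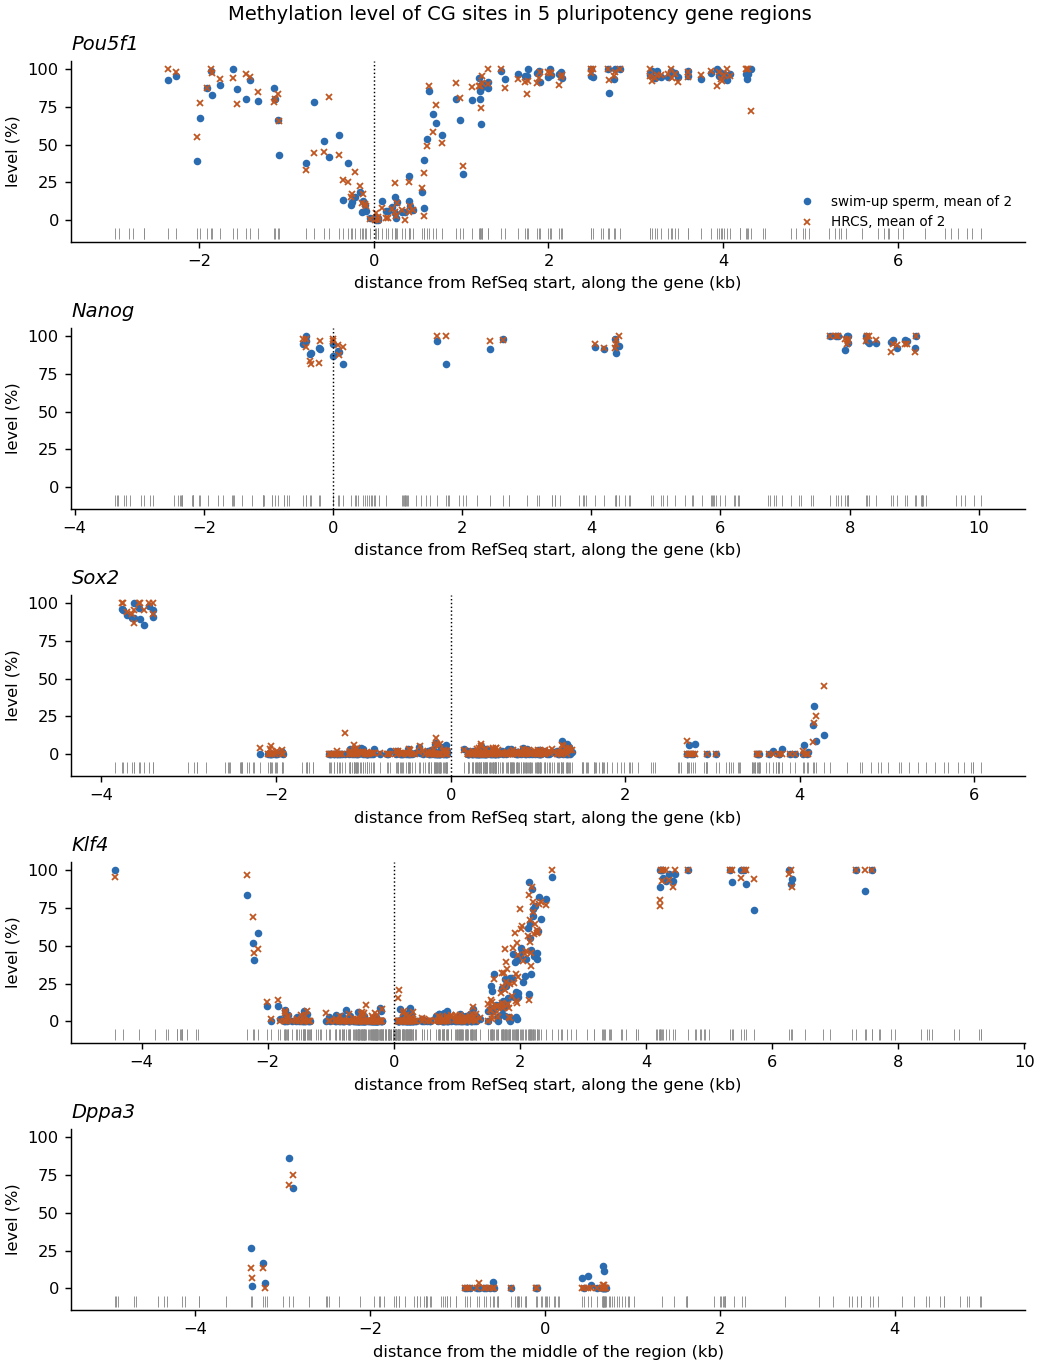
Methylation level (%) of every CG site with at least 5 reads in all libraries, by distance from the RefSeq start along the gene in kb (for Dppa3, from the middle of its region). Circles are the mean of the 2 swim-up libraries, crosses the mean of the 2 HRCS libraries, the dotted line is the start and grey ticks are all CG sites listed. All 40 Nanog sites lie above 75%, and Pou5f1, Sox2, Klf4 and Dppa3 each hold a low stretch of a different length.

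Ordered by the start zone, Klf4 and Sox2 were lowest. The 82 sites of Klf4 had 0.878% and 0.740% in the swim-up libraries against 1.60% and 1.29% in the HRCS libraries. The 84 sites of Sox2 had 1.57% and 0.758% in swim-up sperm against 1.32% and 1.41% in HRCS. The libraries of these 2 genes overlap. Sox2 was higher than Klf4 by 0.138 percentage points on average and in 3 of 4 libraries, a difference within the spread of the libraries (two-sided exact sign permutation test, p = 0.625). Klf4 was the higher of them within 250 bp of the start (1.51% against 1.34%), with a minimum of 20 reads (1.66% against 1.13%) and without swim-up replicate 1 (1.21% against 1.16%), so these neighbours have no fixed order. The 30 sites of Pou5f1 had 12.6% and 10.03% in swim-up sperm against 11.7% and 12.2% in HRCS, which is 10.4 points above Sox2 and higher in 4 of 4 libraries. The 12 sites of Nanog had 90.5% and 91.5% in swim-up sperm against 95.2% and 88.1% in HRCS, which is 79.7 points above Pou5f1, again in 4 of 4 libraries. For both of these steps the exact sign permutation test gave p = 0.13, the smallest that 4 libraries allow, so a p under 0.05 was out of reach. With a zone of 1000 bp on either side, which takes in the flanks of Pou5f1, these steps were 23.9 and 66.3 points. The smallest step between Pou5f1 and Sox2 in any library was 9.27 points, and the values of these genes in the 4 libraries do not overlap.

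**Figure D2:**
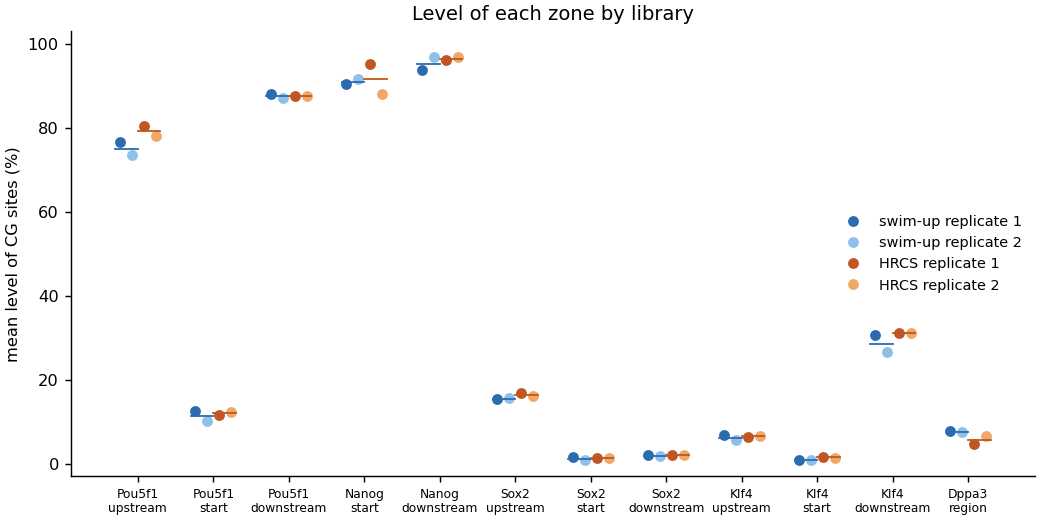
Mean level (%) of the CG sites in each zone, with 1 point per library, swim-up sperm in blue and HRCS in orange, and a line at the mean of each fraction (n = 2). The start zone of Pou5f1 lies far below both of its flanks in every library, the zones of Nanog are all between 88.1% and 96.9%, and Nanog has no upstream zone because no site there reached 5 reads in every library.

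In Pou5f1, the POU factor at the centre of the network, most low sites lay in a short interval. The longest run of sites at or below 50% held 33 of the 37 such sites of the region, from chr17:35642575 to chr17:35643549, 402 bp before to 572 bp after the start. In this run of 975 bp the level was 13.6% and 11.01% in the swim-up libraries against 12.4% and 12.7% in the HRCS libraries. The 21 upstream sites had 76.6%, 73.6%, 80.5% and 78.1%, and the 69 downstream sites had 88.1%, 87.1%, 87.6% and 87.6%, each in the order of swim-up replicates 1 and 2 and HRCS replicates 1 and 2. All 4 libraries thus had a low start between high flanks.

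The run was not evenly low. The 5 sites nearest the start, from 42 bp before to 49 bp after it, had 2.03%, 0%, 2.13% and 1.20% in the same order, from 109 to 178 calls per library. The 0% of swim-up replicate 2 rests on 109 calls, which allow a level of up to 2.75%. The CG 42 bp before the start lies in the 1 match to the letters GGGCGG (the GC box, searched on both strands) of the 300 base promoter, and its level was 2.56%, 0%, 0% and 2.44%. The 7 sites from 246 to 94 bp before the start were higher, with 17.2% and 5.94% in swim-up sperm against 17.0% and 17.7% in HRCS. In this stretch swim-up replicate 2 lay below the other 3 libraries, which differed by less than 1 point. After the start, the sites from 94 to 445 bp also stayed low, with means of 2.05% to 27.4%. Farther out on either side the level was mostly higher and varied from site to site. Upstream, the site 402 bp before the start had a mean of 49.7%. Downstream, the 3 sites from 551 to 572 bp after the start had means of 5.67% to 35.4%, and the 5 sites from 613 to 781 bp had means of 51.3% to 87.0%, with 69.2%, 62.5%, 67.9% and 61.3% over these 5 in the libraries. The 59 sites beyond 1 kb had 93.2%, 93.3%, 92.8% and 93.5%. The exception among them was the first, 1025 bp after the start, with 20.0%, 41.5%, 33.9% and 37.3% from 41 to 62 reads. The boundaries of these stretches were chosen after the values were seen, so they are given without a test.

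**Figure D3:**
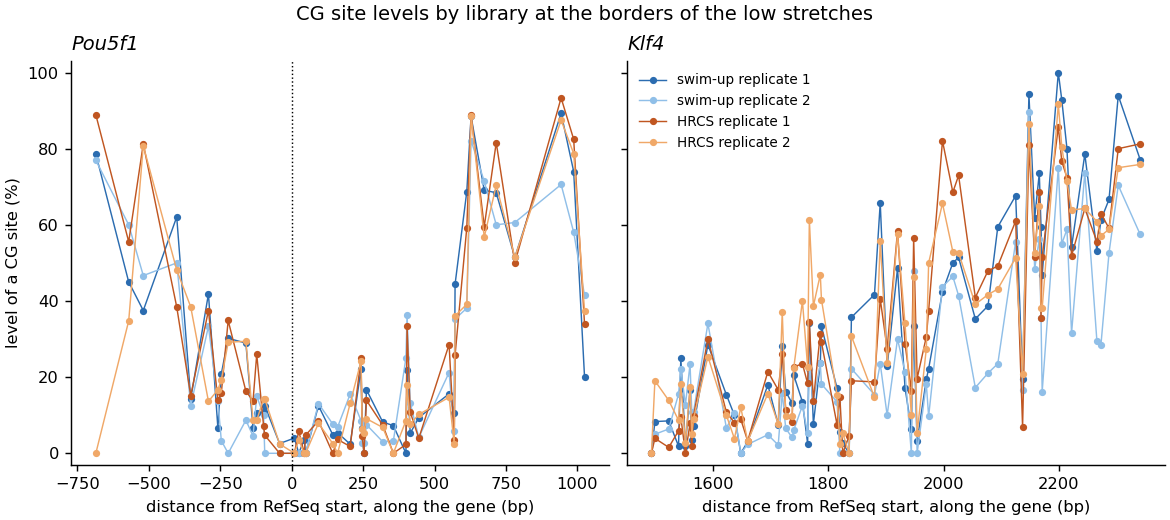
Level (%) of single CG sites by distance from the RefSeq start along the gene (bp), 1 line per library. In Pou5f1 (left, dotted line at the start) the 4 libraries are low near the start and differ from each other at some sites upstream of it. They rise together between 572 and 628 bp, beyond which sites vary. In Klf4 (right, the downstream border) swim-up replicate 2 runs below the other libraries at many sites.

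At the start inside Pou5f1 the picture was the opposite. Its 300 base promoter holds 6 CG dinucleotides, and the 4 that could be measured had 96.1% and 92.6% in swim-up sperm against 94.1% and 98.7% in HRCS. The upstream promoter had a mean of 9.70% over all of its 11 CG dinucleotides.

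In Nanog, a homeobox factor that holds cells in the pluripotent state, no low site was found. The means of the 40 sites ran from 84.7% to 100%, and no site was at or below 50%. The 4 CG sites of the promoter lie 223, 201 and 7 bp before and 2 bp after the start. Together they had 92.2% and 89.7% in swim-up sperm against 93.7% and 92.9% in HRCS. The 28 downstream sites had 93.7% and 96.9% in swim-up sperm against 96.1% and 96.8% in HRCS, so the promoter was slightly lower than they were in each library. Coverage was thin here. Only 40 of 174 CG sites listed (23.0%) reached 5 reads in every library, the first of them 462 bp before the start, and the stretch before that was not measured at this depth.

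In Sox2, the HMG box factor that pairs with Pou5f1, the low stretch was the longest of the 5. It covered 255 sites and 6458 bp, from chr3:34546734 to chr3:34553191, with levels of 1.56% and 1.11% in swim-up sperm against 1.64% and 1.57% in HRCS. In 84 sites of the region not 1 methylated read was seen in any library. The 12 sites farther upstream, from 3761 to 3410 bp before the start, had 91.5% and 94.8% in swim-up sperm against 96.9% and 95.9% in HRCS. The border between these 2 states fell between chr3:34545507, with a mean of 93.9%, and chr3:34546734, and no site in between qualified. On the other side the stretch reached the last site measured, 4274 bp after the start, and the last 4 sites had higher means of 13.9% to 28.8%. Their depth was 5 to 22 reads.

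In Klf4, a zinc finger factor, the low stretch covered 247 sites and 3990 bp, from 2015 bp before to 1974 bp after the start (chr4:55543373 to chr4:55547362, with the gene on the minus strand). Its level was 3.82% and 3.02% in swim-up sperm against 4.28% and 4.76% in HRCS. At the upstream border, the site 2015 bp before the start had a mean of 11.5%, and the sites 2157, 2221, 2234 and 2330 bp before it had 53.2%, 43.0%, 60.4% and 90.1%. The downstream border was wider. Over the 62 sites of this slope, from 1523 to 2341 bp after the start, the site means ranged from 1.14% to 88.1%, and the 24 sites beyond had 94.9%, 93.8%, 96.4% and 93.8%. Of the 40 CG sites of the promoter 8 qualified, all of them at least 187 bp before the start.

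In Dppa3, the maternal protection factor, 27 sites from chr6:122577086 to chr6:122578701 formed a low stretch of 1616 bp. Its level was 1.03% and 2.58% in swim-up sperm against 0.337% and 0.265% in HRCS, from 298 to 398 calls per library. Of the 33 sites, 18 had no methylated read in any library. The window at chr6:122577001-122577200 had 0 methylated calls in every library, which from 24 to 48 calls allows a level of up to 6.25% to 12.5%. Such limits cover counting error only. The 2 sites at chr6:122575065 and chr6:122575117 stood apart with means of 77.0% and 70.7%, and the 4 sites before them had means of 1.92% to 20.1%. Averaged over these 4 sites, the level was 16.5% and 7.96% in the swim-up libraries against 5.36% and 11.5% in HRCS. Nanog, whose sites were all high, lies on the same chromosome. Only 33 of 154 listed sites of Dppa3 qualified, and the median depth of these was 10 to 14 reads. In the low stretch 27 of 49 listed sites did. No site between chr6:122575117 and chr6:122577086 qualified, so the border there was not measured. As the start was not placed, whether it lies in the low stretch is not known.

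The promoters of the members were then set beside those of other genes. Of 32851 RefSeq promoters of 300 bases, 22541 held at least 4 CG dinucleotides, 22074 were placed at 1 position, and 16234 had at least 3 sites with 5 reads. Among the latter, 91.8% had a mean level of at most 25%, and 6.14% had one above 75%. The share above 75% was 30.1% of 2980 promoters with 4 to 9 CG dinucleotides, 2.03% of 4824 with 10 to 19, and 0% of 8430 with 20 or more. Nanog, with 4 CG dinucleotides and a mean of 92.1%, was in the first of these classes. Of promoters with a like number of CG dinucleotides (within 2 of it, and never under 4), 31.1% were at least as high. For the upstream start of Pou5f1, with 11, this share was 11.1%. For Sox2, with 27 and a mean of 1.54%, it was 12.9%, and for Klf4, with 40 and a mean of 1.54% over 8 of them, 21.5%. The median of promoters with 20 or more was 1.07%, so the shares of Sox2 and Klf4 rest on small differences between low levels.

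**Figure D4:**
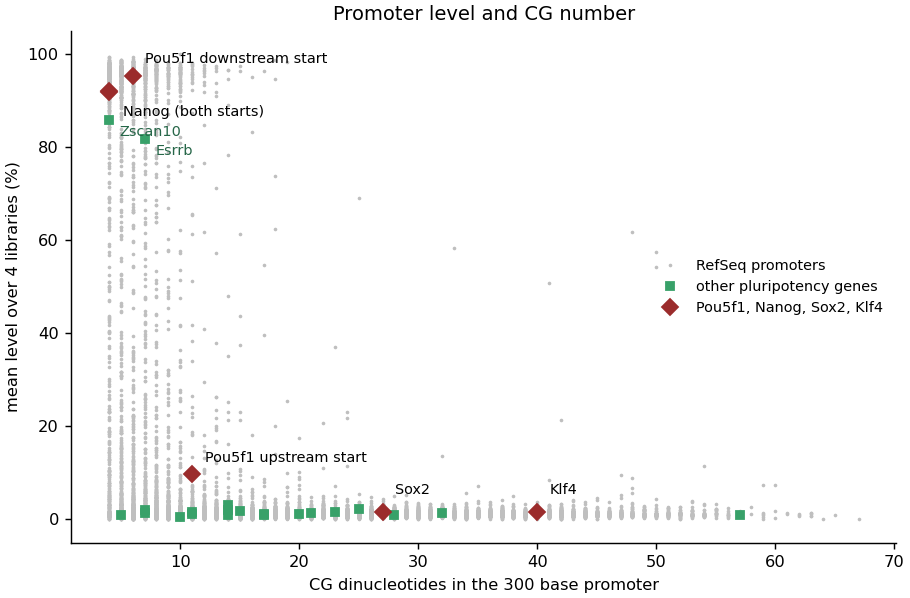
Mean level over the 4 libraries (%) against the number of CG dinucleotides in the 300 base promoter, for 16234 RefSeq promoters (grey), 21 other pluripotency genes (green squares) and the promoters of Pou5f1, Nanog, Sox2 and Klf4 (red diamonds). Levels above 75% occur where CG dinucleotides are few, and Nanog, the downstream start of Pou5f1, Esrrb and Zscan10 lie there.

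Searched on both strands, the letters GGGCGG were found once at Pou5f1, at 2 places at Sox2 and at 4 at Klf4, and not at Nanog, and 35.7% of all promoters in the table hold them. The exact octamer ATTTGCAT, which POU factors bind, was in none of these promoters and in 1.74% of all promoters. Near matches were not counted. The Nanog run above holds ttttgcat, which differs from the octamer in its first letter. The Sox2 run holds atgcaaaa, which differs in the last letter from the octamer read on the other strand (ATGCAAAT). The search thus does not show that POU factors have no site in these promoters.

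Next, swim-up sperm were compared with HRCS, the 2 fractions of the design. From the site means defined above, the fractions differed by under 2 percentage points over each of the 5 regions. The test could not reach a p under 0.05 with 2 libraries each. Averaged over the Pou5f1 region, swim-up sperm had 66.3% ± 1.24 (SD, n = 2) against 67.2% ± 0.225 in HRCS. The means were 94.0% ± 1.79 and 95.0% ± 1.16 at Nanog, 5.46% ± 0.202 and 5.87% ± 0.0804 at Sox2, 15.7% ± 1.64 and 17.2% ± 0.0188 at Klf4, and 7.57% ± 0.170 and 5.61% ± 1.48 at Dppa3. The differences were thus 0.886, 1.03, 0.404, 1.46 and −1.96 percentage points. The two-sided exact permutation test gave p = 0.667 for Pou5f1 and Nanog and p = 0.333 for the other 3 genes, and 0.33 is the smallest p that 2 libraries against 2 allow. At Sox2, Klf4 and Dppa3 the libraries of the fractions did not overlap, but each of these separations was lost under an alternative (exact permutation p = 0.667). They were lost at Sox2 with minimums of 10 and 20 reads (0.155 and 0.0906 points), at Klf4 with pooled calls (0.934 points) and at Dppa3 with minimums of 3 and 10 reads (−1.03 and −1.28 points). Taken from pooled calls in place of site means, the difference had the opposite sign at Pou5f1 (−2.64 points) and at Sox2 (−1.03 points), and in both the libraries did not overlap (exact permutation p = 0.333). With a minimum of 10 reads the libraries of Pou5f1 did not overlap either, with HRCS higher by 1.48 points (exact permutation p = 0.333), and with a minimum of 20 reads the difference at Klf4 was 2.31 points. The difference at Nanog had the opposite sign without swim-up replicate 1 (−0.236 points), and without swim-up replicate 2 those at Klf4 and Pou5f1 were 0.301 and 0.0119 points. At Dppa3, leaving out HRCS replicate 1 gave −0.912 points, and leaving out HRCS replicate 2 gave −3.01 points. Pooled calls gave −2.91 points there, and minus-strand reads alone gave −2.64 points (exact permutation p = 0.333 for each). Within the regions, the zones that differed most were upstream in Pou5f1 (4.20 points) and downstream in Klf4 (2.46 points). In both the libraries of the fractions did not overlap (exact permutation p = 0.333). Downstream in Klf4, however, swim-up replicate 1 (30.61%) was close to the HRCS libraries (31.01% and 31.03%), and swim-up replicate 2 had 26.5%. These zones were picked as those of largest difference. HRCS was the lower only in the downstream zone of Pou5f1 (−0.0037 points).

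At the level of single windows, methylated and unmethylated calls were tested with edgeR's quasi-likelihood test over 316993 windows of 200 bp with at least 3 sites. Of all windows, 13 passed an adjusted p of 0.05 (0.0041%), and of the 81 windows of the 5 genes 0 passed. At an unadjusted p under 0.05, 4.61% of all windows and 1 of the 81 passed. This window was in the low stretch of Dppa3, at chr6:122578401-122578600, with 3.73% and 3.33% in swim-up sperm against 0% in both HRCS libraries, from 56 to 84 calls (edgeR, unadjusted p = 0.0497, adjusted p = 1). Its swim-up levels rest on few methylated reads. Swim-up replicate 1 had 1 at chr6:122578424 and 1 at chr6:122578521, and replicate 2 had 2 at chr6:122578495. The lowest unadjusted p of edgeR was 0.0516 in Klf4, at chr4:55539601-55539800, with 84.9% and 90.8% in swim-up sperm against 100% and 96.1% in HRCS. In Pou5f1 it was 0.0647, at chr17:35644601-35644800, with 96.4% and 97.2% against 89.1% and 91.0%. In Nanog it was 0.148, in the window of the start (chr6:122657401-122657600), with 93.6% and 87.1% against 96.1% and 95.8%. In Sox2 it was 0.113, at chr3:34546801-34547000, where all levels were between 0% and 2.78%. The adjusted p of each of these windows was 1. By limma, 0 of all windows and 0 of the 81 passed the adjusted p, and 18000 of all windows and 2 of the 81 had an unadjusted p under 0.05.

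**Figure D5:**
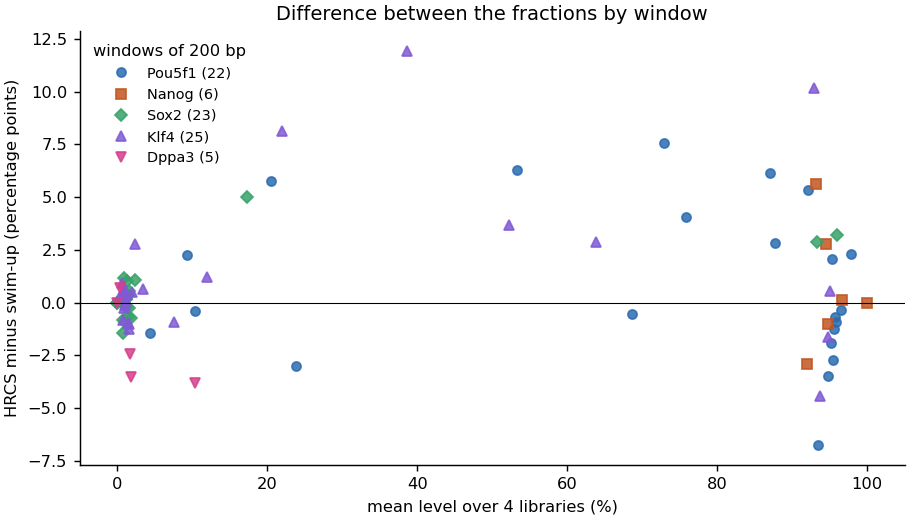
HRCS minus swim-up difference (percentage points) of the 81 windows of 200 bp against their mean level over 4 libraries (%), by gene, with the number of windows in brackets. The differences lie between −6.74 and 11.9 points, and the 2 above 10 points are both in Klf4.

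Windows differed by −6.74 to 7.55 points at Pou5f1, by −2.93 to 5.64 at Nanog, by −1.44 to 4.99 at Sox2, by −4.40 to 11.9 at Klf4 and by −3.82 to 0.714 at Dppa3. The median difference of the 81 was 0.148 points, and that of all windows was 0.0162. The highest window of Pou5f1 (chr17:35645401-35645600) had a mean of 97.8% and its lowest (chr17:35643001-35643200) 4.42%. The windows of Nanog spanned 92.0% to 100%, those of Sox2 0% to 96.0%, of Klf4 0.559% to 95.0% and of Dppa3 0% to 10.3%. The Dppa3 sites at chr6:122575065 and chr6:122575117, with means of 77.0% and 70.7%, are in none of these windows, which need at least 3 sites.

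At single CG sites, both HRCS libraries lay above both swim-up libraries at 75 of 759 sites (9.88%), beside 7.98% of all qualifying sites, and below both at 51 (6.72%), beside 7.83% of all. At 25.6% of all qualifying sites no order was possible because every read of every library was alike. This share was 1.67% at Pou5f1, 10% at Nanog, 31.5% at Sox2, 36.1% at Klf4 and 54.5% at Dppa3. By gene, HRCS was above at 22 and below at 18 of 120 sites in Pou5f1, at 3 and 5 of 40 in Nanog, at 12 and 15 of 267 in Sox2, at 38 and 11 of 299 in Klf4 and at 0 and 2 of 33 in Dppa3. The shares above and below were 18.3% and 15% at Pou5f1, 7.5% and 12.5% at Nanog and 4.49% and 5.62% at Sox2. They were 12.7% and 3.68% at Klf4 and 0% and 6.06% at Dppa3.

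In Klf4, 22 of the 38 sites with higher HRCS were among the 62 sites of the downstream slope, and HRCS was lower at 4 of the 62. An order was possible at every slope site, as their means ran from 1.14% to 88.1%, but not at 36.1% of all Klf4 sites. Some gathering of ordered sites on the slope thus follows from their level, and the counts were not set against other sites of intermediate level. Many neighbouring sites lie a few bp apart and can be covered by the same reads. Counts of sites, here and over the regions, are therefore not counts of separate observations. The level of this slope was 34.5% in swim-up replicate 1, 24.95% in swim-up replicate 2, and 34.6% and 35.6% in HRCS. Over the whole slope swim-up replicate 2 was the lowest library. The fractions differed by 5.36 points with it, and HRCS differed from swim-up replicate 1 alone by 0.57 points. That value joins parts of opposite sign, 2.98 points over the 39 inner sites (1523 to 1974 bp after the start), which hold 16 of the 22 sites, and −3.50 points over the 23 outer sites. The slope was noticed after the values were seen and has no test. Its window of largest difference, chr4:55543201-55543400, had 36.9% and 28.5% in swim-up sperm against 47.8% and 41.4% in HRCS, a difference of 11.9 points (edgeR, unadjusted p = 0.115, adjusted p = 1). There both swim-up libraries lay below both HRCS libraries. The same library was the lowest on average over the 7 sites upstream of the Pou5f1 start, though not at each of them. It was the lowest of the 4 in 9 of the 15 windows of these genes with a mean level between 5% and 75%, and in 33.3% of the 57418 such windows of the genome. Without it, HRCS and swim-up replicate 1 differed by 0.08 points over the 7 sites upstream of the Pou5f1 start. That stretch was delimited after its values were seen, and what sets the library apart was not tested.

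A single site of Pou5f1, 519 bp before the start, had 37.5% and 46.7% in swim-up sperm against 81.3% and 80.8% in HRCS, from 15 to 32 reads. It was picked for its difference among 759 sites and has no test. The measured sites on either side of it, 570 and 402 bp before the start, differed by −7.33 and −12.7 points. The window of these 3 sites, chr17:35642401-35642600, differed by 6.29 points (edgeR, unadjusted p = 0.601).

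Finally, the promoters of 40 other genes known from pluripotent cells were examined. No entry was found for 14, 1 could not be placed, and 4 had under 3 sites with 5 reads. Of the other 21, 19 had a mean level of at most 25%, 0 lay between 25% and 75%, and 2 were above 75%, which makes 90.5% and 9.52% beside 91.8% and 6.14% of all promoters. The median of the 21 was 1.30%, and that of all promoters was 1.16%. Each of the 21 genes is given by 1 start, whereas every start of a gene counts among all promoters. The 2 high genes were Esrrb, an orphan nuclear receptor of the naive state, with 82.3% and 80.0% in swim-up sperm against 82.8% and 82.5% in HRCS, and Zscan10, a zinc finger factor, with 86.6% and 85.4% against 86.8% and 84.8%. Over the promoters of the 21 genes lay 43 windows, of which 0 passed edgeR's adjusted p and 3 had an unadjusted p under 0.05, beside the 4.61% of all windows.

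Of the 21 genes, the nearest to each member by the mean absolute difference of the promoter level over the 4 libraries was Zscan10 for Nanog (6.23 points), L1td1 for Pou5f1 (6.49 points), Tfcp2l1 for Sox2 (0.284 points) and Nr0b1 for Klf4 (0.643 points). For Nanog, the promoter was higher than that of Zscan10 in each library. No gene of the list was within 6 points of Nanog or of Pou5f1.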

How the data were processed

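The authors fragmented genomic DNA to about 500 bp, captured it with a mouse methylation probe set, prepared libraries by post-bisulfite adaptor tagging, sequenced single reads of 100 cycles and mapped them to mm9 with Bmap. The deposited tables hold unnormalized counts, 1 of methylated and 1 of total reads for every CG site and strand. As the columns are unnamed, the smaller count was read as the methylated one, which the values alone cannot show. Between 88.7% and 89.6% of the calls lay on the minus strand.

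Here both strands of a site were added, and sites that reached 5 reads in each of the 4 libraries were kept. RefSeq promoters were placed on mm9 by the exact spacing of at least 4 CG dinucleotides, with no conversion of coordinates. Windows of 200 bp were tested with edgeR 4.0.16 in R 4.3.3 (a term per library, methylated calls, methylated calls in HRCS, 1 dispersion, Benjamini-Hochberg over all windows), and with limma 3.58.1 as an alternative. The code was tested on simulated data. Python 3.11.15, numpy 2.4.6, pandas 2.3.3 and matplotlib 3.10.9 were used. PCR copies were not told apart, and limits on counts cover counting error only.

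The text names all members, and per gene the window of lowest p. It gives the levels of the lowest and highest windows, and the promoter mean where a promoter was placed. Of other pluripotency genes it names those above 25% and the nearest to each member. The members and lists were chosen with earlier results of these data known.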

Additional observations from a re-analysis of the deposited data

How the results depend on the processing

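No alternative brought a window of the 5 genes past the adjusted p: minimums of 10 and 20 reads, windows of 500 bp, at least 1 site per window, limma and leaving out each library in turn all gave 0. Without 1 library, the spread comes from the other fraction alone and the lone library is assumed to vary like it, so these fits say little about stability. Of the windows of the 5 genes, 0 to 8 had an unadjusted p under 0.05, the 8 of 81 without swim-up replicate 1, where 19553 of all 316993 windows did. Over the whole genome, edgeR called 13 windows, 7 with a minimum of 10 reads, 2 with 20 reads, 6 with windows of 500 bp, 10 with at least 1 site per window, 3 to 36 with 1 library left out (36 without swim-up replicate 1), and limma called 0. Left out in turn, the libraries gave a difference between HRCS and swim-up sperm of 0.0119 to 1.76 percentage points at Pou5f1, −0.236 to 2.29 at Nanog, 0.261 to 0.547 at Sox2, 0.301 to 2.62 at Klf4 and −3.01 to −0.912 at Dppa3. The direction turned at Nanog with a minimum of 3 reads (−0.621), of 10 reads (−0.0867) and without swim-up replicate 1 (−0.236). With pooled calls it turned at Pou5f1 (−2.64) and Sox2 (−1.03). The cause was not tested. The start zone of Pou5f1 had 8.85% within 250 bp and 25.03% within 1000 bp of the start, since these zones hold other sites. That of Klf4 had 1.66% with a minimum of 20 reads, which left 6 sites. At 20 reads no site of Dppa3 was left. All other differences kept their direction, and the start zone of Pou5f1 stayed above those of Klf4 and Sox2 and below that of Nanog. Between Klf4 and Sox2 the order turned within 250 bp of the start, with a minimum of 20 reads and without swim-up replicate 1.

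The replicate numbers did not pair the libraries (correlation of the deviations −0.0018 over 316993 windows). With the replicate block, 0 windows of the 5 genes passed and 9 of all windows did. The differences by replicate number had the same means, 0.886 points at Pou5f1, 1.03 at Nanog, 0.404 at Sox2, 1.46 at Klf4 and −1.96 at Dppa3.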
